A study of Drosophila melanogaster with 2 samples.

Results

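The genes described here are the microRNA hairpin genes of *Drosophila melanogaster*, set beside the binding sites of CG11696, a predicted zinc finger protein. They were taken from the genome annotation by symbol (mir-, bantam or let-7) and by transcript type, which gave 262 hairpin genes of 17798 annotated genes. Hairpins less than 10 kb apart were joined, so that the 260 hairpins on the 7 chromosomes used formed 198 clusters, 27 of them with more than 1 hairpin. The 2 other hairpins, mir-10404-1 and mir-10404-2, lie on a ribosomal DNA contig and were not analysed here. Binding was measured by chromatin immunoprecipitation and sequencing with an antibody against the green fluorescent tag, in flies of the strain CG11696-GFP, whose inserted transgene makes CG11696 fused to eGFP. There was 1 group of 2 biological replicates, both whole embryos aged 0 to 24 h, so all tissues and embryonic stages are mixed, and sex was not recorded. The fusion protein is carried by both replicates, and no group without it was compared here.

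MicroRNAs are short RNAs that lower the output of messenger RNAs by base pairing. They are cut from hairpins in longer primary transcripts, first by Drosha and Pasha in the nucleus and then by Dicer-1 in the cytoplasm, and they act bound to AGO1. The bases near the 5' end of the mature microRNA, called the seed, set most of its target choice. A hairpin may sit in an intron of a protein-coding host gene or in a noncoding transcript with its own promoter, so a protein bound near the transcription start site (TSS) of the host is placed where transcription of the hairpin begins, whereas the hairpin itself may lie many kilobases away.

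Mature products of clusters with strong sites or widely studied hairpins, and of mir-276b, which shares a seed with one of them, are shown first, because the seed is what groups them. They were read from the RefSeq Release 6 genome at the annotated positions, 5' to 3', with the seed (bases 2 to 8) in capitals. Arms are named by their place in the hairpin.
mir-279 3p: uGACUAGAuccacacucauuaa
mir-996 3p: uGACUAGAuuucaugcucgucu
mir-92a 3p: cAUUGCACuugucccggccuau
mir-92b 3p: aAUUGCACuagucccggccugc
mir-375 3p: uUUGUUCGuuuggcuuaaguua
mir-87 3p: uUGAGCAAaauuucagguguguga
bantam 3p: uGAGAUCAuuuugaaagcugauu
mir-276a 3p: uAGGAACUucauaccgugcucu
mir-276b 3p: uAGGAACUuaauaccgugcucu
mir-9a 5p: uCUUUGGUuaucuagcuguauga
The pairs mir-279 and mir-996 and mir-92a and mir-92b each share a seed, and all 4 of these hairpins had a site within 5 kb. The hairpins mir-276a and mir-276b share 1 too, but only mir-276a had such a site.

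Of the 198 clusters, 48 (24.2%, 95% Wilson interval 18.8 to 30.7) had at least 1 summit within 5 kb of a hairpin edge in the conservative list, the deposited set of 3143 peaks on these chromosomes that passed the authors' threshold on reproducibility between the replicates. The background share was 26.3% for the 5' ends of protein-coding genes and 16.0% for the bases of the same chromosomes. The share of clusters was therefore close to that of protein-coding 5' ends, and at 5 kb its interval lay above the share of bases. Counted singly, 57 of 260 hairpins (21.9%) had such a summit. The median distance from a cluster to its nearest summit was 16108.5 bp, against 13967 bp for protein-coding 5' ends. At shorter distances clusters were below protein-coding 5' ends. Within 2 kb there were 18 of 198 clusters (9.09%, 5.83 to 13.9) and 2091 of 13968 protein-coding 5' ends, a share above that interval, while within 1 kb the interval (3.88 to 10.9) included the 10.8% of protein-coding 5' ends. The intervals at both of these distances included the share of bases, 7.39% within 2 kb and 3.97% within 1 kb.

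**Figure D1:**
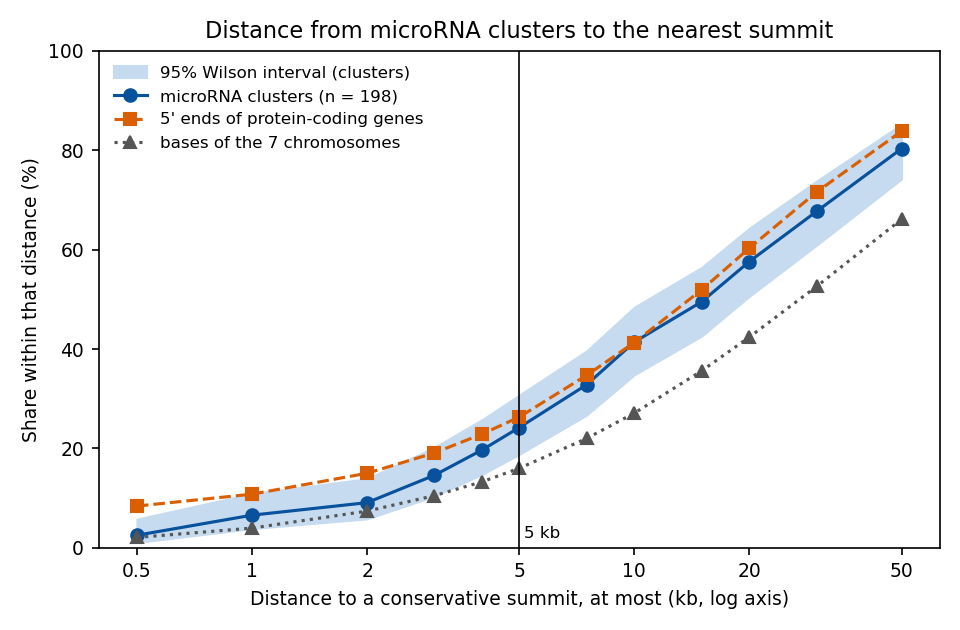
The share of the 198 microRNA clusters (blue, band: 95% Wilson interval), of protein-coding 5' ends (orange) and of bases (grey) that lie within a given distance of a conservative summit, with distance in kb on a log axis. At 0.5 kb the clusters stand at 2.53% and protein-coding 5' ends at 8.4%, and at 10 kb they stand at 41.4% and 41.3%.

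None of the 260 hairpins was overlapped by a conservative peak (interval up to 1.46%), where 0.879% of stretches of the median hairpin length, 92 bp, touch such a peak, so the count was not below this background beyond its interval. A conservative summit lay within 500 bp of 5 hairpins (1.92%, 0.824 to 4.42), close to the 2.09% of bases in that window, and 8.4% of protein-coding 5' ends lay in it. These were mir-9378 at 161 bp, mir-277 at 224 bp, mir-9377 at 337 bp, mir-4968 at 374 bp and mir-282 at 477 bp. The summit nearest mir-282 belongs to a weak peak of signal value 15.2 that overlaps a stronger one. With weak overlapping peaks left out there were 4 such hairpins, and the count of clusters with a summit within 5 kb was 48 as before.

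Those weak peaks aside, 68 distinct peaks had their summit within 5 kb of a hairpin. Of them 46 (67.6%) lay upstream of the 5' end of the nearest hairpin on its strand. No such share for other genes is set beside it, so it is not shown to be particular to hairpins. By place in the annotation, 29 summits were within 500 bp of a TSS, 23 were in introns, 11 were intergenic and 5 were in exons. The 29 at a TSS are 42.6% (31.6 to 54.5) of the 68, and of the conservative peaks away from hairpins 1194 of 2900 were at a TSS, a share within that interval. Of the 29 at a TSS, 16 were at a TSS of the host gene and 13 at a TSS of another gene. Both promoter groups held strong and weak peaks, as the plot of position against signal shows. In 28 of the 48 clusters the strongest summit had no TSS within 500 bp, in 12 it was at a host TSS and in 8 at the TSS of another gene.

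**Figure D2:**
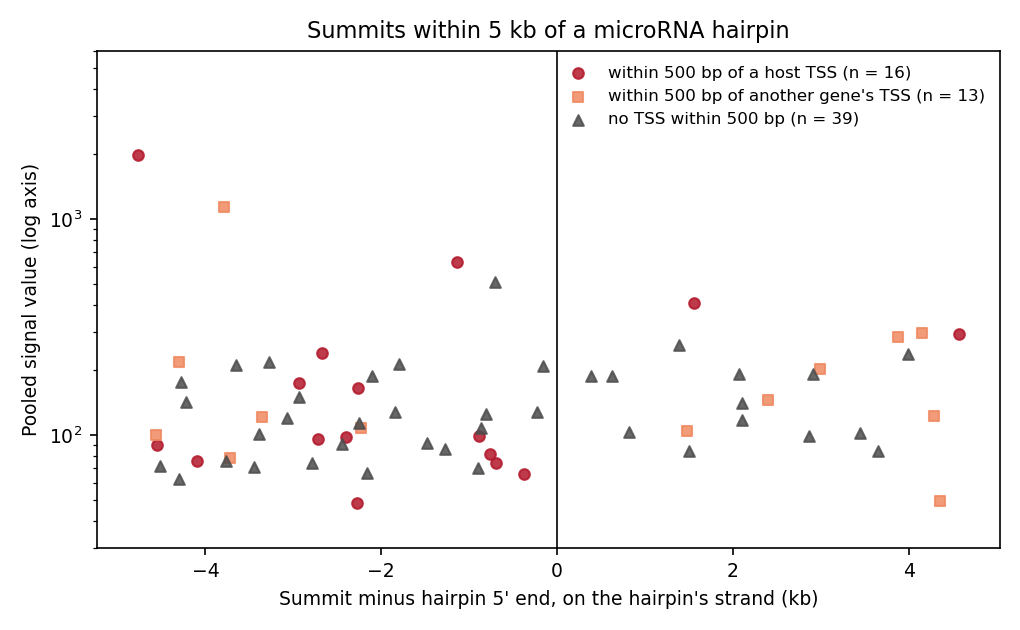
Each point is 1 of 68 peaks within 5 kb of a hairpin. The x axis gives the summit's position relative to the hairpin 5' end in kb (negative values are upstream) and the y axis the pooled signal value on a log axis, with color and shape for the kind of TSS within 500 bp. The 46 upstream peaks include the 4 highest, with signal values of 511 to 1977.

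The deposited signal value of a peak gives its strength on the peak caller's own scale, and the scale of the pooled list is not that of a replicate's list. Peaks near hairpins had a median pooled signal of 121, against 111 over all 2968 conservative peaks counted the same way. Over the 67 peaks near hairpins with both values, log2 of replicate 2 over replicate 1 had a median of 0.06 and ran from -1.20 to 1.06, against a median of 0.09 over 2950 conservative peaks. All of these peaks had been selected by the authors for reproducibility between the same replicates. Of the 68 peaks, 35 (51.5%) overlapped thresholded peaks of both replicates and 16 (23.5%) of neither, against 52.4% and 24.3% of all conservative peaks.

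The strongest site near any hairpin was 4766 bp upstream of mir-4943 (chr2L:16532984-16533605, dm6). The summit was 380 bp from the nearest TSS of the protein-coding host CG5953, inside the 500 bp window but outside the annotated span of the gene. The pooled signal value of this site was 1977, the second highest of the conservative list, with 908 in replicate 1 and 1018 in replicate 2 (963 ± 78.1, SD, n = 2). The next strongest lay 3787 bp upstream of mir-87, a microRNA that lies on the strand opposite to a gene. It had 1131 pooled, 568 in replicate 1 and 539 in replicate 2 (554 ± 20.3, SD, n = 2). Its summit was 22 bp from the TSS of CG4709 and also within 500 bp of that of CG13126, so it marks a promoter of other genes and no annotated start of mir-87.

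Next in order was the cluster of mir-279 and mir-996, which lower the neural regulator nerfin-1 in fly sensory neuron development. Its 3 peaks lay around a primary transcript annotated as lncRNA:CR31044. The peak at the start of that transcript, 114 bp from its TSS and 1137 bp upstream of mir-279, had a pooled signal of 634, with 324 in replicate 1 and 297 in replicate 2 (310 ± 18.6, SD, n = 2). A second peak lay inside the transcript, 624 bp past the 5' end of mir-279 and between the hairpins, with 188 pooled, 69.7 in replicate 1 and 124 in replicate 2 (96.6 ± 38.0, SD, n = 2). The third, with 202 pooled, 89.9 in replicate 1 and 103 in replicate 2, was 5 bp from the TSS of eEF1gamma, a translation elongation factor subunit, and 2897 bp past mir-996. The promoter peak was the highest of the 3 in both replicates, and the inner peak was the one whose replicates differed most.

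The bases within 50 bp of these summits are shown because they are the sequence under the strongest site at a microRNA primary transcript and its neighbors (dm6, plus strand). Capitals mark the words searched for, the E box aside.
mir-279 promoter, chr3R:29214398-29214498: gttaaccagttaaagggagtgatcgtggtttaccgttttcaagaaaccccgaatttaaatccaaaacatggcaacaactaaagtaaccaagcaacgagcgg
inside the transcript, chr3R:29216159-29216259: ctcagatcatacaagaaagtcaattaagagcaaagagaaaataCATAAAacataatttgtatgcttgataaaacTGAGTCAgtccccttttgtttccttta
eEF1gamma promoter, chr3R:29220127-29220227: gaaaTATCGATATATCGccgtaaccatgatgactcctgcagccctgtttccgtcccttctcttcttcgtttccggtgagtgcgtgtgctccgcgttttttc
The window at the mir-279 promoter held none of the marked words. The inner window held the AP-1 word TGACTCA, read on the minus strand as TGAGTCA, and the Caudal-type word TTTATG. The eEF1gamma window held the DRE word TATCGATA, the shorter CGATA, which is part of it, and, past it, a CGATA read on the minus strand as TATCG.

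**Figure D3:**
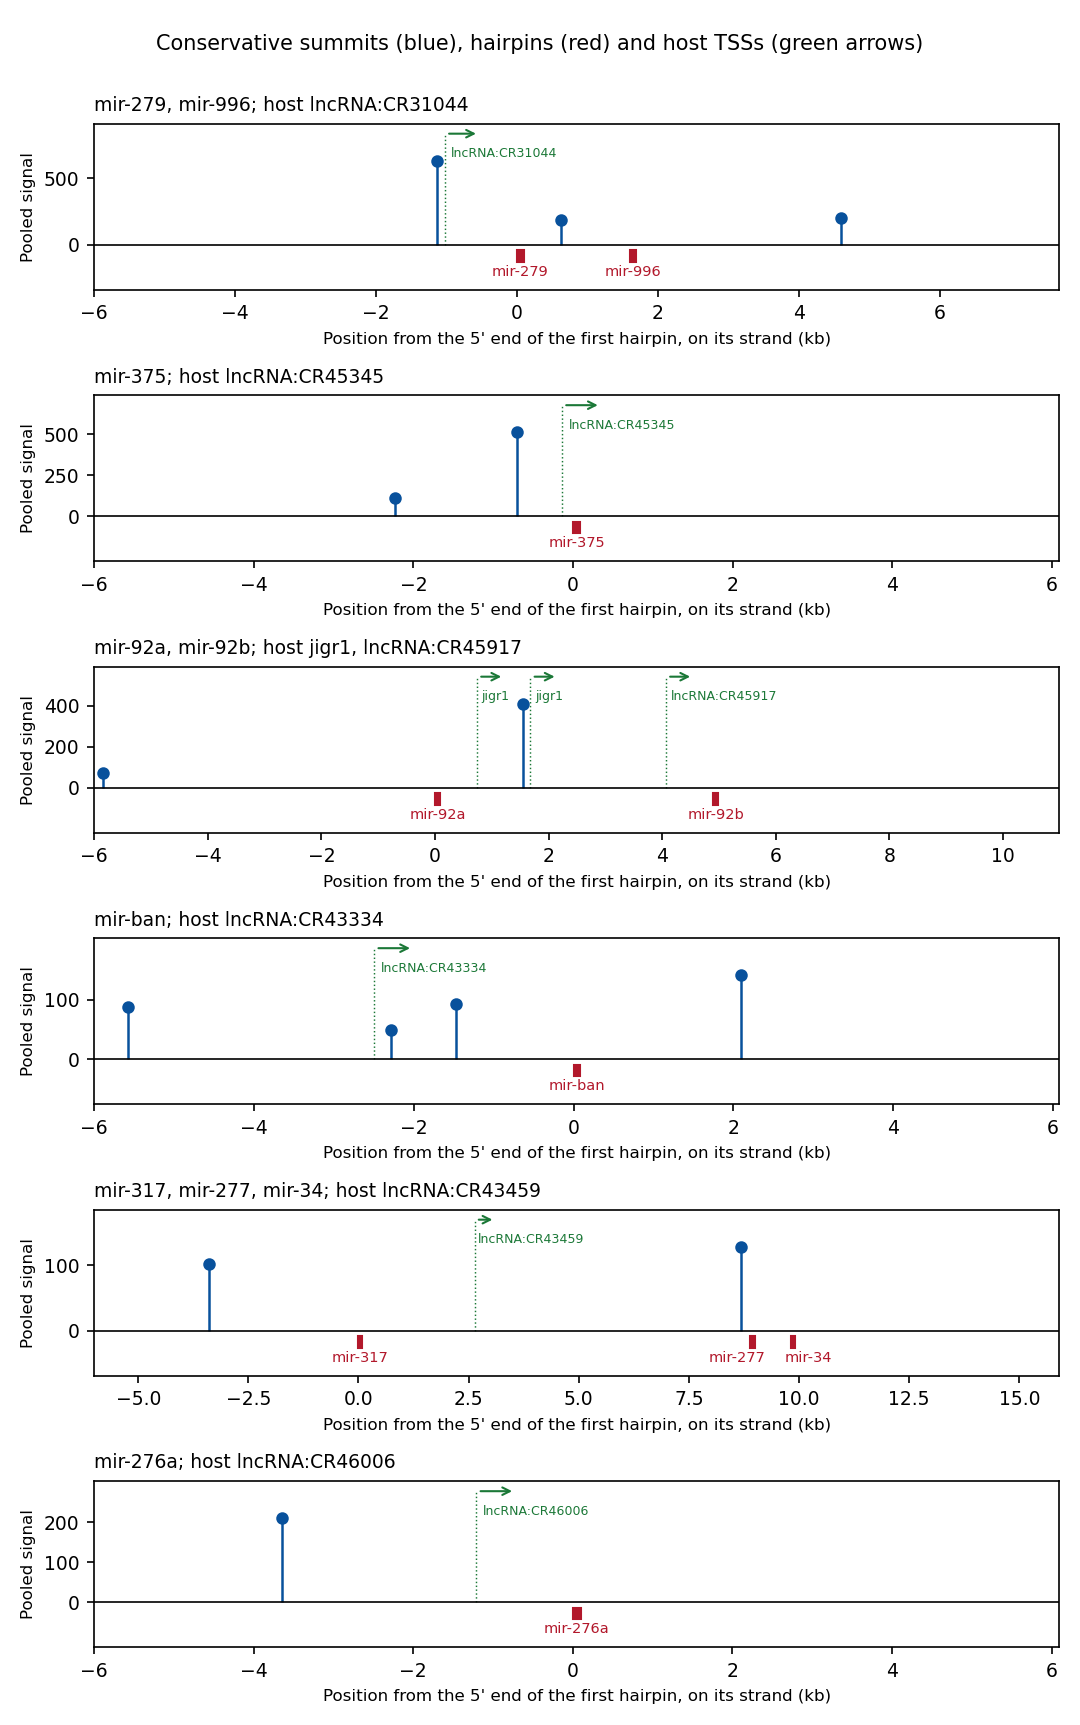
Loci of 6 microRNA clusters, drawn to scale in kb from the 5' end of the first hairpin on its strand. Blue stems give each conservative summit's pooled signal value, red boxes the hairpins and green arrows the annotated host TSSs, so that the mir-279 site at 634 is seen beside its host TSS while the mir-276a site at 210 is 2441 bp upstream of the nearest TSS of its host.

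A strong site without any TSS in its window lay 703 bp upstream of mir-375, whose counterpart in mammals is known from pancreatic islets. Its pooled signal was 511, with 257 in each replicate. The summit was 564 bp upstream of the start of the noncoding host lncRNA:CR45345, just outside the 500 bp window. A second, weaker peak of 108 was 2226 bp upstream of mir-375, at the TSS of CG13949. For mir-92a and mir-92b, which act in the maintenance of neural stem cells, 1 peak of 409 pooled (200 in replicate 1 and 208 in replicate 2) lay between the hairpins, 128 bp from a TSS of the host gene jigr1 and 1458 bp past mir-92a. No transcript that starts there spans either hairpin, and the TSS of the annotated primary transcript, lncRNA:CR45917, was 2514 bp from the summit.

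The other clusters given in full ranged from 218 to 297 in pooled signal. The mir-955 cluster had 3 peaks of 105, 145 and 297, all within 500 bp of TSSs of CG14968 and all past the hairpin, and the strongest had 145 in replicate 1 and 151 in replicate 2. The mir-4972 site was at a TSS of its host for, a cGMP-dependent protein kinase, with 292 pooled, 139 in replicate 1 and 155 in replicate 2. The mir-1004 site was 204 bp from a TSS of bowl, a zinc finger gene of the odd-skipped family, and not at its host CG43707, with 283 pooled, 142 in replicate 1 and 133 in replicate 2. Near mir-9377 there were 2 peaks in an intron of Tis11, a gene for an RNA-binding protein of messenger RNA decay. The higher had 261 pooled, 125 in replicate 1 and 130 in replicate 2, and the lower, 188 pooled, was 337 bp from the hairpin. The mir-9383 site was at the promoter of its host CG12241, with 241 pooled, 122 in replicate 1 and 126 in replicate 2. The mir-1006 site lay past the hairpin with no TSS in its window, at 237 pooled, 99.3 in replicate 1 and 129 in replicate 2. The mir-9a site, 4303 bp upstream of a hairpin known for lowering the proneural gene senseless, had 218 pooled, 102 in replicate 1 and 106 in replicate 2. It was within 500 bp of the TSS of lncRNA:CR44676 and 1808 bp from that of the annotated primary transcript of mir-9a.

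**Figure D4:**
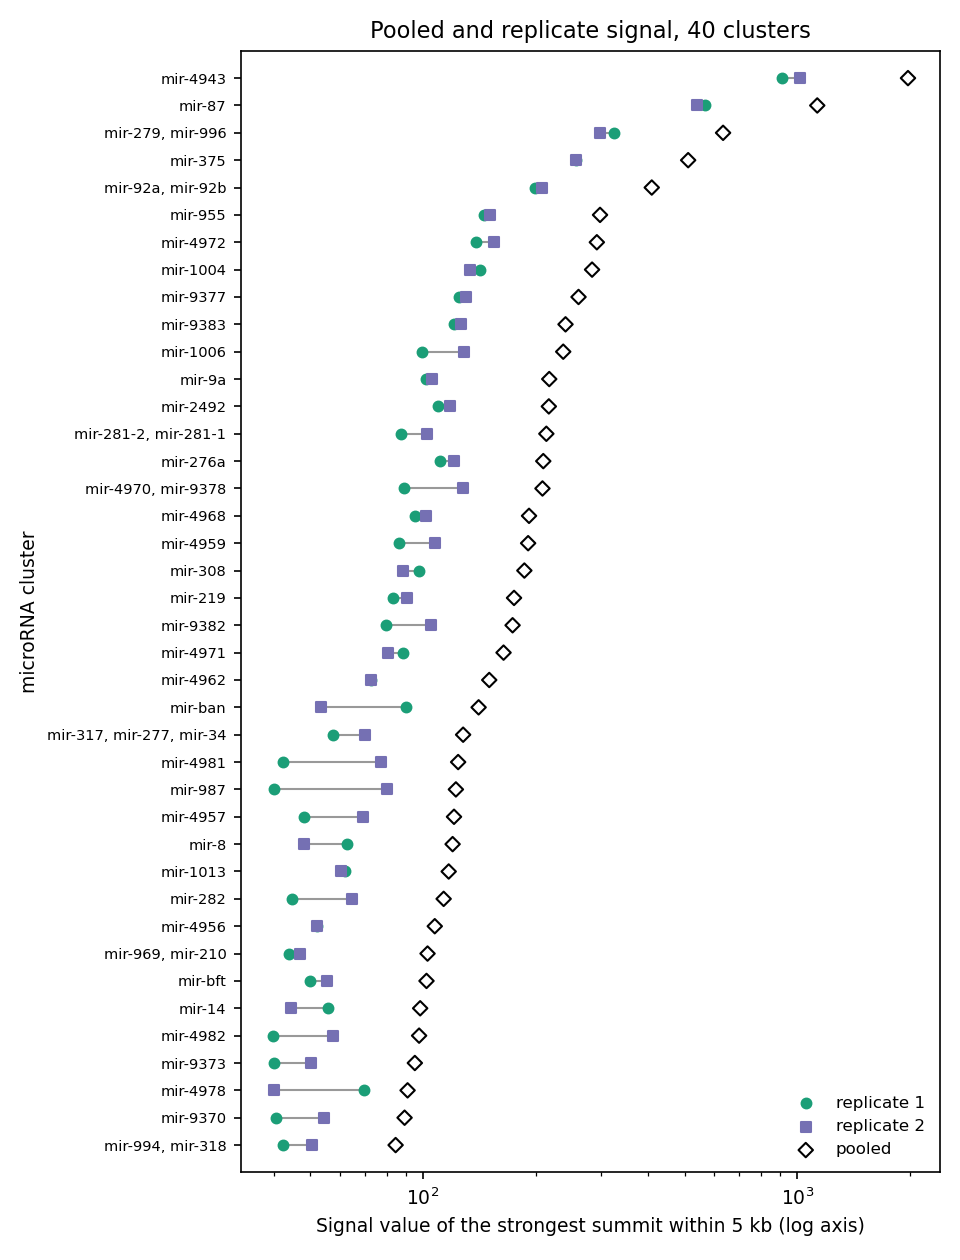
Signal value of the strongest conservative summit within 5 kb of each of 40 microRNA clusters on a log axis, with replicate 1 as green circles, replicate 2 as purple squares and the pooled value as open diamonds. The pooled values run from 84.6 to 1977, and the replicates lie visibly apart for bantam (90.1 and 53.4) and mir-4981 (42.4 and 77.3).

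Among the widely studied microRNAs, bantam, which promotes growth and lowers the cell death gene hid, had 3 sites of modest signal. One was 213 bp from the TSS of its noncoding host lncRNA:CR43334, at 48.2 pooled (36.2 in replicate 1 and 31.2 in replicate 2). Another was inside the host at 92.1 (44.6 and 39.1), and the strongest was 2017 bp past the hairpin at 141 (90.1 and 53.4). The bantam promoter peak was the lowest of all 68 peaks near hairpins. The mir-276a site, near a microRNA of olfactory memory, was in an exon of its noncoding host, 2441 bp before the nearest host TSS, with 210 pooled, 111 in replicate 1 and 121 in replicate 2.

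The cluster of mir-317, mir-277 and mir-34, known in the fly for effects on metabolism and ageing, had 2 sites. The one 224 bp upstream of mir-277, in an exon of the primary transcript lncRNA:CR43459, had 128 pooled, 57.4 in replicate 1 and 70.0 in replicate 2. The other, 3391 bp upstream of mir-317, had 101 pooled, 31.1 in replicate 1 and 64.8 in replicate 2, and the annotated TSS of the transcript, which lies past mir-317 and before mir-277, was 6026 bp from the nearest summit. The window beside mir-277, chr3R:10099748-10099848, is printed because its summit lay within 500 bp of the hairpin (the motif 1 word in capitals).
mir-277 site: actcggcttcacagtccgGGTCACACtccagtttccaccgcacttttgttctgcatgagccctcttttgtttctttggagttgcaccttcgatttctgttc

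Of the remaining well-known microRNAs with a site, mir-14 had its own at 98.4 pooled (55.9 in replicate 1 and 44.5 in replicate 2), 25 bp from the TSS of its primary transcript lncRNA:CR43651. The mir-8 site, at 120 pooled (62.6 and 48.2), was 736 bp from the TSS of the primary transcript lncRNA:CR43650. The sites near mir-7, in HnRNP-K, and mir-33, in the lipid regulator SREBP, were weaker, at 66.9 and 70.8 pooled. Each lay in an intron of the host, 928 bp and 581 bp from the nearest host TSS. The mir-7 site (34.2 in replicate 1 and 37.0 in replicate 2) overlapped no thresholded peak of either replicate. The mir-33 site (40.4 and 39.3) overlapped a thresholded peak of replicate 2 only. The cluster holding mir-2a-1, in the EGF receptor ligand gene spi, had a site of 62.2 whose matched peak in replicate 2 had 39.8 and which had no matched value in replicate 1. No summit lay within 5 kb of this cluster in either replicate's thresholded list. The same was true of the optimal list, another thresholded list deposited for the series.

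Several of the most studied microRNAs had no conservative summit within 5 kb. The distances were 5482 bp for let-7, the regulator of developmental timing, 5390 bp for mir-11, 8943 bp for mir-184, 13155 bp for mir-iab-4 in the bithorax Hox region, 16100 bp for mir-263b, 22086 bp for mir-278 and 24493 bp for mir-190. They were larger for the mir-309 hairpin (29510 bp), for mir-10 in the Antennapedia Hox region (46488 bp), for the neuronal mir-124 (52095 bp) and for the muscle mir-1 (157996 bp). For mir-1 the answer depends on the list. The optimal list of the series, also thresholded, had a summit within 5 kb of it, while neither replicate's thresholded list did. The largest clusters were likewise without a conservative site: 12 hairpins on the X chromosome from mir-972 to mir-979 were 36140 bp from the nearest conservative summit, and the 8-hairpin mir-309 cluster was 28520 bp away. Over clusters of more than 1 hairpin, 8 of 27 had a summit within 5 kb, and over single hairpins 40 of 171.

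On either side of the 5 kb limit, the clusters were close to each other in distance. Just inside it were mir-9a at 4303 bp, the mir-2a cluster at 4306 bp, mir-4972 at 4461 bp, mir-9370 at 4545 bp and mir-4943 at 4766 bp. Just outside were mir-252 at 5141 bp, the cluster of mir-100, let-7 and mir-125 at 5169 bp, mir-4983 at 5218 bp, mir-2500 at 5295 bp and the pair mir-998 and mir-11 at 5390 bp.

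Hosts were the genes whose span held a hairpin on the same strand. Of 155 clusters with any host, 25 (16.1%, 11.2 to 22.7) had a conservative summit within 500 bp of a host TSS, where the background was 10.1% for all protein-coding genes and 4.75% for noncoding RNA genes other than microRNAs. Protein-coding hosts gave 21 of 124 clusters (16.9%, 11.4 to 24.5) and noncoding hosts alone gave 4 of 31 (12.9%, 5.13 to 28.9). The lower bounds for any host and for protein-coding hosts lay above 10.1%. The interval for noncoding hosts included 10.1%, and its lower bound of 5.13% was only just above 4.75%. Among those 4 clusters, the host promoter peaks of mir-282 and bantam overlapped no thresholded peak of either replicate. At mir-282, moreover, no transcript that starts at the bound TSS spans the hairpin. No share without them was computed, so a difference from 4.75% is not shown to hold. Hosts and the genes of the background were not matched for length or for number of TSSs.

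In 21 of the 25 clusters a transcript starting at the bound TSS spanned a hairpin, so that 13.5% (9.04 to 19.8) of the hosted clusters had a bound promoter in front of them. That interval includes the background of 10.1% for all protein-coding genes. The exceptions among the 25 were mir-92a with mir-92b, mir-4972 in for, mir-282, and mir-2b-1 in the tyrosine kinase gene Btk. Site and hairpin were often far apart. The promoter of Sxl, the master gene of sex determination, had 469 pooled (259 in replicate 1 and 196 in replicate 2) and lay 10836 bp from mir-4956. The Btk promoter had 449 (239 in replicate 1 and 210 in replicate 2) at 19179 bp from mir-2b-1. PAPLA1 had 196 (88.9 and 104) at 18063 bp from mir-4984. Among protein-coding hosts the lowest signal was at the promoter of Glut4EF, which had 66.4 (34.6 and 43.5) at 114511 bp from mir-9371. The spi promoter had 145 (50.8 and 76.3) at 5595 bp from the mir-2a hairpins. Closer hosts were RpS23, a ribosomal protein gene whose promoter peak of 81.7 was 3 bp from the TSS and 760 bp from mir-308, and msl-2, of the dosage compensation complex, with 164 at 2262 bp from mir-4971.

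For 22 clusters the RefSeq synonyms name a primary transcript. In 2 of them, the mir-279 cluster and mir-14, a conservative summit lay within 500 bp of a TSS of that transcript (9.09%, 2.53 to 27.8), and mir-8 made 3 within 1 kb. The interval at 500 bp includes the 4.75% of other noncoding RNA genes and the 10.1% of protein-coding genes. With 5 kb around the hairpin as the window, 9 of the 22 clusters (40.9%, 23.3 to 61.3) had a summit. That interval includes the 24.2% of all clusters and the 26.3% of protein-coding 5' ends. The primary transcripts of mir-1 and mir-124 had their nearest conservative summits 157911 bp and 46538 bp away.

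By position relative to genes, 29 of 124 clusters in protein-coding hosts, 10 of 31 in noncoding hosts only, 3 of 16 opposite a gene and 6 of 27 between genes had a summit within 5 kb, with intervals that overlap one another. Chromosome arms gave 13 of 39 clusters on 2L, 9 of 40 on 2R, 8 of 30 on 3L, 8 of 48 on 3R, 10 of 39 on X and 0 of 2 on chromosome 4. The interval of each arm includes the 24.2% of all clusters (20.6 to 49.0 for 2L and 8.7 to 29.6 for 3R). No share of protein-coding 5' ends or of bases was computed per arm, so the counts show no difference particular to microRNA clusters. Clusters with a hairpin numbered below 1000 or named, mostly those found earliest, had a summit in 23 of 81 cases (28.4%, 19.7 to 39.0), and the others, from later catalogs, in 25 of 117 (21.4%, 14.9 to 29.6). For comparison, a summit within 5 kb was found for 58 of 290 transfer RNA genes, 4 of 32 small nuclear RNA genes and 109 of 269 small nucleolar RNA genes, without a test of the difference.

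In the ranked list, which holds 95508 peaks of any reproducibility, 165 of 260 hairpins (63.5%) and 137 of 198 clusters had a summit within 500 bp. The background was 61.6% of protein-coding 5' ends and 46.6% of bases, so the share of hairpins was close to that of 5' ends. The strongest ranked peak beside a hairpin had a median signal value of 28.5 and a median score of 53, where the score runs from 0 to 1000 and rises with reproducibility. Over all single peaks of the ranked list the medians were 22.8 and 45. Some hairpins had several ranked peaks within 500 bp, and only the strongest was taken, which favors higher signal values. The medians beside hairpins and over the whole list are therefore not measured alike, and they do not show that peaks beside hairpins are stronger. Only 4 of the 165 reached the lowest score of the thresholded list, 830. The highest below it was mir-2491 at 790, followed by mir-3643 at 651, mir-9374 at 646, mir-9388 at 524 and bantam at 510.

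**Figure D5:**
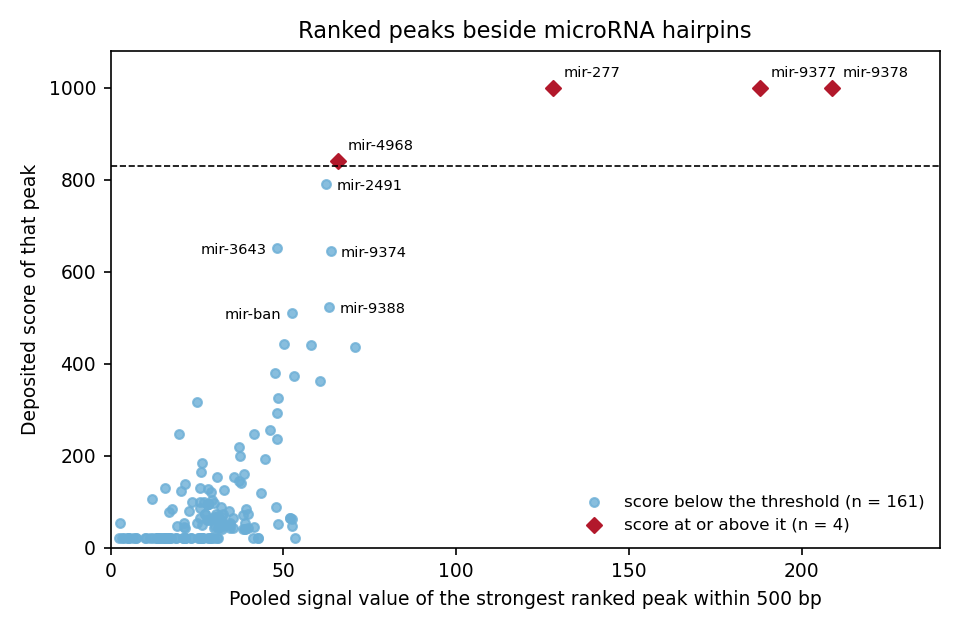
The strongest ranked peak within 500 bp of each of 165 hairpins, with its pooled signal value on the x axis and its deposited score on the y axis. The dashed line is the lowest score of the thresholded list (830); the 4 red diamonds above it are mir-277, mir-9377, mir-9378 and mir-4968, and 161 hairpins fall below.

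Mature sequences were read for all 260 hairpins, and 33 seeds were shared by 2 or more of them. Of 28 seeds shared between clusters, 16 had a summit within 5 kb of at least 1 cluster. Such a seed has several clusters in which a summit can be found, and 24.2% of all clusters had one. Some loci, such as mir-276a and mir-9a, also enter under more than 1 seed. The count is therefore no measure of seed families, and no expected count was computed. The largest family, with the seed of mir-2a-1 (AUCACAG), had 14 hairpins, of which mir-2a-1, mir-2b-2 and mir-308 had a summit. The mir-92 family had 6 hairpins and a summit near mir-92a and mir-92b, while mir-310 to mir-313 had none. In the mir-9 family, mir-9a had a summit and mir-9b and mir-9c had none, and in the family of mir-279 and mir-996 the other member, mir-286, had none. Members of a seed family that lie in 1 cluster share its summits.

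Short words were counted within 50 bp of the 68 summits on both strands, beside 2900 conservative summits away from hairpins and beside windows of the same width 300 bp to either side. The DRE word TATCGATA was in 2 windows (2.94%, against 0.655% elsewhere), and the motif 1 word GGTCACAC was in 2 (2.94% against 0.552%). The BEAF-32 word CGATA was in 20.6% against 12.3%, and in 11.0% and 11.4% of the respective flanks. The TATA box word TATAAA was in 10.3% against 19.7% (flanks 8.09% and 10.7%), and the GAGA factor word GAGAG in 5.88% against 10.8% (flanks 20.6% and 15.8%). The E box CANNTG was in 45.6% against 37.2% (flanks 42.6% and 41.5%). The AP-1 word TGACTCA was in 1.47% against 0.931% (flanks 1.47% and 0.948%). The Caudal-type word TTTATG was in 13.2% against 14.9% (flanks 11.8% and 10.9%). The GATA factor word GATAAG was in 8.82% against 5.76% (flanks 4.41% and 4.88%), and the homeodomain word TAATTA in 5.88% against 9.38% (flanks 4.41% and 5.38%). The octamer ATTTGCAT was in 1.47% against 1.38% (flanks 2.21% and 1.53%). The Zelda word CAGGTAG and the Myc-type CACGTG were in none of the 68. These shares rest on few peaks, and a match describes letters, not a bound factor.

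The bases under the summits were rich in A and T, at 63.0% near hairpins and 65.0% elsewhere, against 55.9% and 56.9% in the flanks. The 10 words of 8 letters that stood out most over flanks at the summits away from hairpins were all made of A and T alone, with TATTTTAA first. At least 1 of the 10 was in 25.0% of the windows near hairpins and 31.0% of the others, against 11.8% and 13.4% of the flanks. The strongest sites near microRNA genes (mir-4943, mir-87, mir-279 and mir-375) were among those with none of these 10 words.

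Of the 37 genes listed for making, loading and acting with microRNAs, 32 were found under the symbol used, and 5 of them (15.6%, 6.86 to 31.8) had a conservative summit within 500 bp of a TSS. They were Hsp83, a chaperone that helps load Argonaute (177 pooled, 105 in replicate 1 and 73.4 in replicate 2), its partner Droj2 (103; 42.3 and 39.4), AGO1 itself (93.6; 52.4 and 41.8), the translation repressor tral (84.6; 33.0 and 50.9) and the deadenylase subunit Pop2 (25.5; 45.0 and 30.8). The pooled value at Pop2 lay below both of its replicate values. Present names recovered the other 5 genes and added Nbr, which trims microRNA ends (82.6), and the decapping enzyme DCP2 (65.3). The interval of the share at the symbols first found includes the background of 10.1%. With the list that leaves out replicate 1 the share was 6.25%, 2 of 32 genes, and with peaks at or above the median signal it was 3.12%, 1 of 32. No promoter site was found for drosha, pasha, Dcr-1, loqs or gw.

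Of 43 listed targets of fly microRNAs, 40 were found and 7 (17.5%, 8.75 to 31.9) had a promoter summit. The strongest was at foxo, the transcription factor of insulin signaling, with 557 pooled, 247 in replicate 1 and 320 in replicate 2 (284 ± 51.2, SD, n = 2). Next were numb, a Notch inhibitor (223; 117 and 100), the limb gene Dll (171; 126 and 47.6), the insulin receptor InR (160; 72.4 and 95.5), the GATA cofactor ush (120; 71.6 and 49.7), the cell death gene hid (106; 50.4 and 57.7) and the receptor Notch, N (74.7; 39.9 and 37.1). The replicates stood farthest apart at Dll (86.8 ± 55.5, SD, n = 2). The interval again includes the background of 10.1%.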

How the data were processed

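Peak lists were deposited by the authors on assembly dm6 for each of the 2 replicates and for the series, in a ranked form and in a form thresholded on the irreproducible discovery rate. Chromatin was sheared by sonication to 200 to 800 bp, per the labels. Which aligner and peak caller were used was not given in the sources used here. The depth is unknown, and intervals cover counting error of the called sites only. In each list, the deposited signal value gives peak strength and the deposited score, from 0 to 1000, rises with reproducibility. A replicate's signal was taken from its own ranked list, at the coordinates that the conservative ranked list matches to a peak.

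MicroRNA genes, hosts and TSSs came from Ensembl release 115, and mature sequences and primary transcript synonyms from RefSeq Release 6. Some mature sequences are not reported here. Distances run from a summit to the nearest hairpin edge. Weak overlapping peaks, 175 in number, have a signal below the ranked median and overlap a stronger peak, and were left out of summaries of peaks. Clusters were named by the 40 highest signals, 12 of them in full. With 1 group and 2 replicates no test between conditions was made, and shares carry 95% Wilson intervals (Python 3.11.15, pandas 2.3.3). Distances, the count within 5 kb and the joining of hairpins into clusters were tested on simulated data, and overlaps of peaks were not. The members and gene lists were chosen with earlier results of these data known.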

Additional observations from a re-analysis of the deposited data

How the results depend on the processing

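The shares moved with the window, the strength required of a peak and the replicate used. The share of clusters with a summit (24.2%) was 9.09% within 2 kb, 41.4% within 10 kb and 16.2% with peaks at or above the median conservative signal, where protein-coding 5' ends gave 2091 of 13968, 41.3% and 16.8%. For hairpins the same changes gave 7.69%, 38.1% and 13.8%. The ranked share of hairpins was 44.6% within 250 bp, 80.8% within 1000 bp and 44.6% with peaks at or above the ranked median. Hosts with a promoter site fell to 11.0% with a 250 bp window and to 7.74% with the stronger peaks, which left 3.12% of pathway genes. With the list of a single replicate, the shares ran from 16.7% to 18.2% for clusters, where protein-coding 5' ends gave 20.9% to 21.2%. They ran from 14.6% to 16.5% for hairpins, 46.5% to 68.1% for ranked summits, 11.0% to 12.9% for hosts and 6.25% to 12.5% for pathway genes. The background of promoter sites is given at the main setting only. The median signal of the 40 named clusters was 86.821 to 89.652 in single replicates and 174 pooled, on another scale. The cause was not tested. Of the alternatives to the shares, 28 stayed within the interval of the reported value and 19 did not. Current symbols, hairpins numbered below 1000 or named, and the 8-letter words were added after seeing the data. No paired analysis was possible because there was 1 group and no test. Unknown depth limits what a missing site shows.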

Other observations

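In the conservative ranked list, 84 peaks reached the lowest score of the thresholded list but were absent from it. Those peaks would add mir-11 (a summit at 3173 bp with a pooled signal of 93.7), mir-998 (the same summit, at 2555 bp) and mir-4949 (3228 bp, 101 pooled) to the hairpins with a summit within 5 kb. The start of the primary transcript of mir-184, a microRNA of the female germline, was 1109 bp from a summit of 83.1, although its hairpin was 8943 bp from any. The TSS of lncRNA:CR43836, host of mir-31b, was 1089 bp from a summit of 412, with the hairpin 54471 bp away.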
